A study of Mus musculus with 2 samples.

Results

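The genes of MHC class I antigen presentation were described in pancreatic islets of RbΔK7 knock-in mice and of control mice. RbΔK7 is a phosphorylation-resistant retinoblastoma protein. The 10 genes are H2-K1, H2-D1, B2m, Tap1, Tap2, Tapbp, Psmb8, Psmb9, Psmb10 and Nlrc5, and every gene probe that carried one of these names on the arrays was taken. They are 10 of 35080 gene names on the array, with 13 probes on 32 spots of 55681 probes in all. Each of 2 two-colour Agilent arrays held 1 mutant sample (Cy5) and 1 control sample (Cy3), and the samples were harvested independently, per the series' design text. Age, sex and the number of animals behind a sample are not given in the sources used here, nor which tissues other than islets carry the allele. Islets were freed with collagenase, picked by hand and frozen without culture, per the labels' protocols. No pair had its dyes exchanged and both arrays lay on 1 slide, so genotype and dye cannot be told apart in any one ratio.

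MHC class I molecules show peptides from inside the cell to CD8 T cells. The immunoproteasome subunits Psmb8, Psmb9 and Psmb10 replace the constitutive catalytic subunits and cut proteins into peptides. Tap1 and Tap2 form the transporter that carries peptides into the endoplasmic reticulum, and tapasin (Tapbp) helps to load them onto a heavy chain, H2-K or H2-D, paired with beta-2 microglobulin (B2m). Nlrc5 is a transactivator of class I genes, and interferons induce most of the pathway. In islets the pathway is known for its part in the attack of CD8 T cells on beta cells in autoimmune diabetes.

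The stretches just before the gene starts are shown because H2-K1 and H2-D1 share much of theirs, Tap1 and Psmb9 lie on either side of a single one, and B2m had the highest ratio of the members. They are RefSeq sequences on GRCm38.p6, 5′ to 3′ on the gene's strand, ending at the last base before the start. Capitals mark matches, on either strand, to the core of the interferon-stimulated response element (GAAA, any 2 bases, GAAA), TTCNNNGAA (the interferon-gamma activated site), an NF-kB-like motif (GGG, any 5 bases, CC), CCAAT, and TGACG from the cyclic AMP response element. They also mark GAANNGAAA, a shorter interferon motif that was added after the sequences had been seen. Matches to the NF-kB-like motif overlap each other. None of the stretches shown holds both interferon motifs.
H2-K1, chr17:34000348-34000488, minus strand: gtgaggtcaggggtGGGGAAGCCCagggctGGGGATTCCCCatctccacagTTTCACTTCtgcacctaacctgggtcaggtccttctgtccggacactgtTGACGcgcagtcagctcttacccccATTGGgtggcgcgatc
H2-D1, chr17:35262893-35263093, plus strand: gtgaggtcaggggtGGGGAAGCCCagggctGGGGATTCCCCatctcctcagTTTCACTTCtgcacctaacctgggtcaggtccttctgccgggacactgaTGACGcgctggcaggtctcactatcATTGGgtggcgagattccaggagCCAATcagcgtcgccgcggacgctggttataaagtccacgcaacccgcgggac
B2m, chr2:122147548-122147686, plus strand: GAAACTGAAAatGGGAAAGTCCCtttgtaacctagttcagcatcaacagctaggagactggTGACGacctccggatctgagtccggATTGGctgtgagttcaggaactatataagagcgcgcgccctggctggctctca
Psmb9 and Tap1, chr17:34187331-34187555, plus strand (Tap1's): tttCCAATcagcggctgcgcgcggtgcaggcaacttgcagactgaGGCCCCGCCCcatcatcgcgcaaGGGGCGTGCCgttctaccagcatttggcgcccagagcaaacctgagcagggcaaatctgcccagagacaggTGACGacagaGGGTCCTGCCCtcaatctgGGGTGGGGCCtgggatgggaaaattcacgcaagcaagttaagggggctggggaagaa

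The H2-K1 and H2-D1 stretches were cut to begin at their longest shared unbroken run, of 47 identical bases. This run holds the NF-kB-like match GGGGATTCCCC, and the shorter interferon motif follows it on the opposite strand. The B2m stretch was cut to begin at its full interferon core. RefSeq also gives H2-K1 a second start further downstream, not shown, whose window held CCAAT at 2 places. Over the 250 bases before the start, the interferon core stood in 2.98% of 32851 RefSeq windows, and among the members' windows B2m's held it. TTCNNNGAA stood in 7.02% of windows and, of the members, in Psmb8's. TGACG stood in 17.8%, CCAAT in 33.8%, the NF-kB-like motif in 45.8% and GAANNGAAA in 6.31%. H2-K1, H2-D1, B2m, Tap1 and Psmb9 each held CCAAT, the NF-kB-like motif and TGACG. Tapbp's window held CCAAT at 2 places, and Psmb10's held none of these letters. Tap1 and Psmb9 run apart from a shared stretch of 225 bases that is read on opposite strands. A match is a string of letters and no shown binding site.

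The 4 samples differed in their markers of other pancreatic cells. Insulin transcripts were bright in all samples: the normalized log2 level of Ins1 was 17.5 and 18.2 in mutant replicates 1 and 2, against 17.7 and 17.0 in the controls. Ins2 had log2 ratios of -0.57 and 0.71, and the endocrine genes Ppy and Scg2 had 2.59 and 1.02 and 0.38 and 1.34. The median level of 30 tested acinar and Reg genes (digestive enzymes and their companions) was 16.2 and 11.5 in the mutant samples, against 15.9 and 17.2 in the controls. The mutant sample of replicate 2 therefore stands apart, and its array gave these genes a median log2 ratio of -5.30, against 0.41 on the replicate 1 array. Ctrc and Reg3a were lower on both, at -2.14 and -5.42 and at -0.49 and -6.35. Reg3a read 8.71 and 7.93 in mutant samples, against 9.20 and 14.3 in controls, so for Reg3a control replicate 2 was the sample apart. Stromal transcripts were higher in the mutant on both arrays, with Col1a1, a fibrillar collagen, at 10.2 and 12.3 in mutant samples and 7.52 and 10.2 in controls. In whole islets, more or fewer cells of a type and more or less RNA per cell cannot be told apart. The values of each array are therefore given separately throughout.

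Of the 13 probes, 10 were well above background in a channel on both arrays and were tested, and they stand for 9 of the genes. Both Nlrc5 probes and 1 of the Psmb9 probes were not. None of the 10 probes passed limma's test with Benjamini-Hochberg adjustment over 22266 probes at 0.05, and 2 (B2m and Psmb10) had an unadjusted p under 0.05. Of all tested probes 82 rose (0.368%) and 3 fell (0.0135%). Of the 10 member probes, 6 had a ratio of mutant over control above 0 on both arrays, 1 below 0 on both, and 3 had opposite signs. Over all tested probes, 32.3% were above 0 on both arrays and 25.3% below. In 6 member probes both mutant levels lay above both control levels, as they did in 21.9% of all tested probes, and in 1 both lay below, as in 15.6%. Counted by gene, with the brightest probe standing for a gene, 5 of 9 members were higher on both arrays, against 33.1% of 17187 tested genes, and 1 was lower, against 25.1%. On the replicate 1 and 2 arrays the members had a median log2 ratio of 0.06 and 0.31, and all tested genes one of 0.02 and 0.03. The ratio was higher on the replicate 2 array for 9 of the 10 probes, Psmb10 being the exception. The same share over all tested probes was not counted, so this is not read as a trait of the members.

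**Figure D1:**
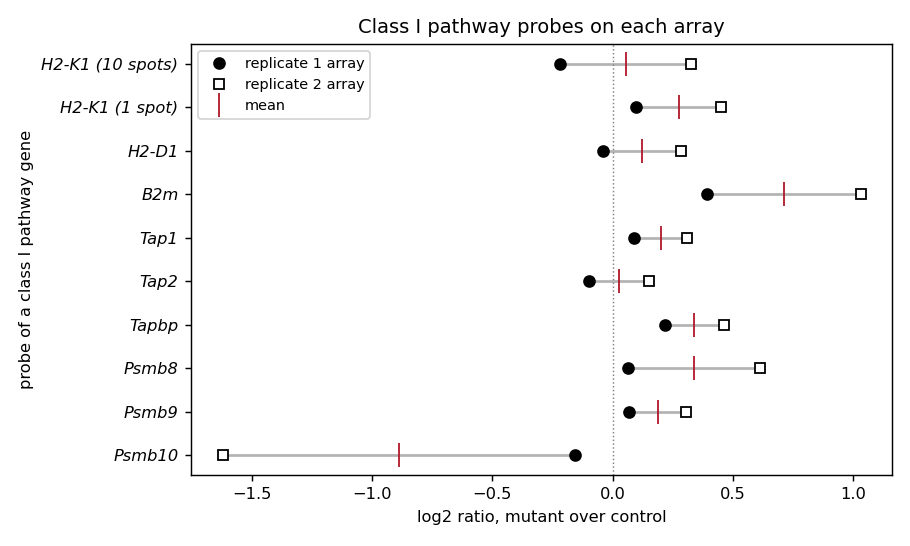
Log2 ratio of mutant over control (x axis) of each tested class I pathway probe (rows) on the replicate 1 array (filled circles) and the replicate 2 array (open squares), with the mean as a red bar. B2m lies farthest to the right on each array, at 0.39 and 1.03. Psmb10, at -0.16 and -1.62, lies farthest to the left on the replicate 2 array, and the 10-spot H2-K1 probe, at -0.22, on the replicate 1 array.

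B2m, the light chain that all classical heavy chains need, had the highest ratio of the tested members on each array. With processed signals and with the series matrix the mean of Tap1 was level with it (0.734 against 0.729, and 0.734 against 0.728). Its probe (chr2:121978401-121978460 on mm9, 2 spots) had a normalized log2 level of 10.9 and 11.5 in mutant samples, against 10.5 and 10.4 in controls. Both mutant samples lay above both controls, which differed from each other by 0.06. The log2 ratio was 0.39 and 1.03, or 1.31-fold and 2.04-fold, and the mean was 0.71 ± 0.45 (SD, n = 2 arrays, 1.64-fold). On the replicate 2 array 98.6% of tested probes had a lower ratio than B2m, and on the replicate 1 array 92.2% did. The difference did not pass the test (limma adjusted p = 0.252), and over 8 other ways of processing, median centring apart, the adjusted p ran between 0.149 and 0.741.

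The heavy chains had smaller ratios than B2m, with opposite signs on the 2 arrays for H2-D1 and 1 of the H2-K1 probes. The 10-spot probe of H2-K1 (chr17:34133055-34133114 on mm9, minus strand) read 12.0 and 12.5 in mutant samples and 12.2 in each control. Mutant replicate 1 was the lowest of the 4 samples and mutant replicate 2 the highest. The spots agreed within each array: 0 of 10 were above 0 on the replicate 1 array, where they ran between -0.29 and -0.11, and 10 of 10 on the replicate 2 array, between 0.26 and 0.38. The spread of spots on an array was smaller than the gap between the arrays, and the mean log2 ratio of 0.05 ± 0.38 (SD, n = 2) joins ratios of opposite sign (limma adjusted p = 0.947). The second H2-K1 probe (chr17:34133984-34134043, 1 spot) read 11.3 and 11.2 in mutant samples, against 11.2 and 10.8 in controls. Its log2 ratios were 0.10 and 0.45 (adjusted p = 0.573), which is 0.32 and 0.13 above those of the 10-spot probe on the same arrays. The probes of H2-K1 thus disagree in sign on the replicate 1 array.

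The second H2-K1 probe is shown beside the probe of H2-T23, a class Ib gene, because their sequences are alike and their readings may share transcripts. Among 40 probes named for class I genes, H2-T23's is the closest to it, with 39 of 54 overlapping bases identical (capitals).
H2-K1 probe: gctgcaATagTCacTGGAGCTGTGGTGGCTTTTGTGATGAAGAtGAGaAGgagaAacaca
H2-T23 probe: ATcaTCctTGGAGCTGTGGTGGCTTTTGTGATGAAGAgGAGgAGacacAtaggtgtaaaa

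H2-T23 had log2 ratios of 0.28 and 0.49, beside the 0.10 and 0.45 of this H2-K1 probe. The closest match of the 10-spot H2-K1 probe to a probe of another class I gene was 26 of 50 bases. For H2-D1's probe it was 27 of 60. Probes were compared with probes and no transcripts were searched, so these matches do not show that either probe is specific. H2-D1, the other classical heavy chain (chr17:35403886-35403945, plus strand), read 11.5 and 11.6 in mutant samples, against 11.5 and 11.3 in controls. Mutant replicate 1 lay between the controls, and the groups overlapped. The log2 ratio was -0.04 and 0.28, and the mean was 0.12 ± 0.23 (SD, n = 2; limma adjusted p = 0.826). On the replicate 1 array H2-D1 and the 10-spot H2-K1 probe were both at or below 0 while B2m was at 0.39.

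**Figure D2:**
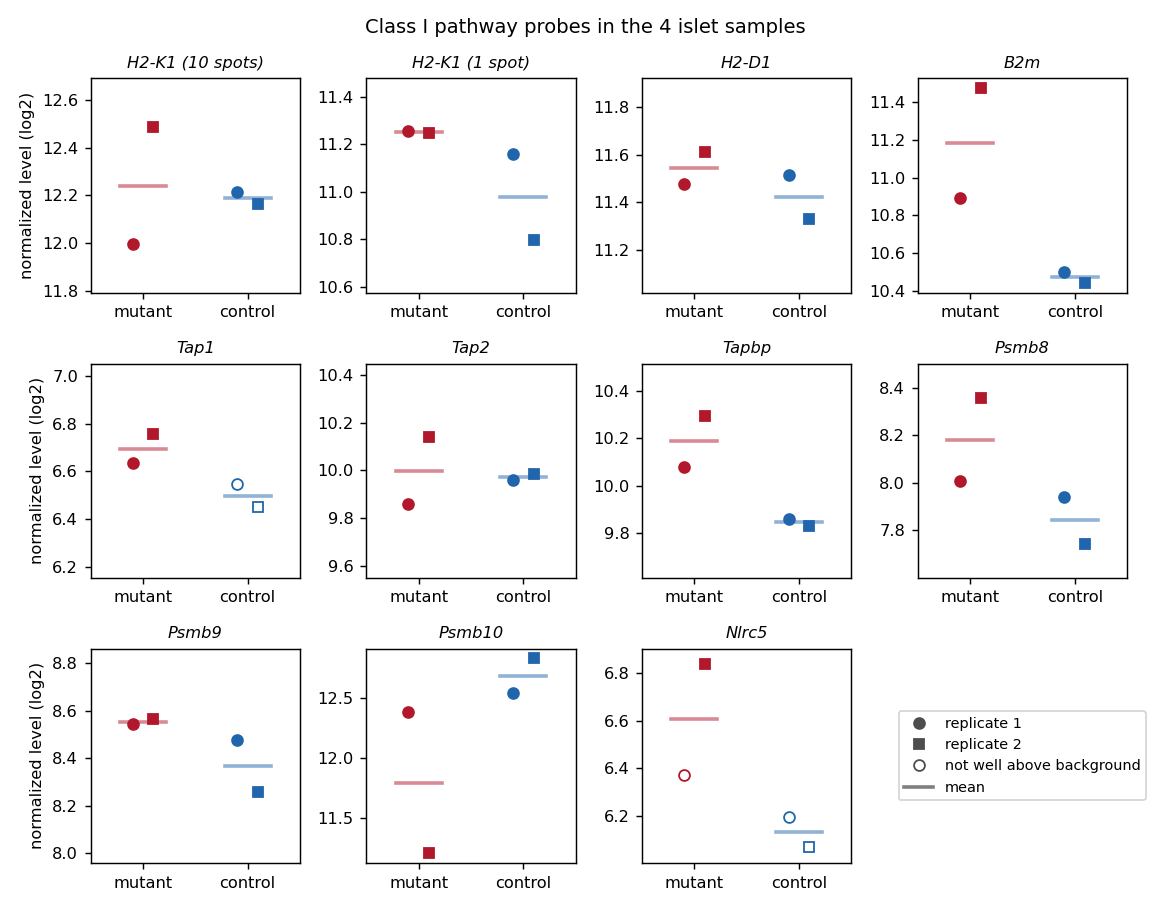
Normalized log2 level (y axis, its own range in each panel, not to be compared between probes) in mutant samples (red, left) and control samples (blue, right), with circles for replicate 1, squares for replicate 2, a line for the mean and open symbols where the probe was not well above background. The mutant points of B2m, Tapbp and Psmb8 lie above both controls, while those of H2-D1, Tap2 and the 10-spot H2-K1 probe overlap them.

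Of the immunoproteasome subunits, Psmb8 and Psmb9 had ratios above 0 on both arrays and Psmb10 below 0. Psmb8 (LMP7, the chymotrypsin-like subunit; chr17:34337771-34337830, plus strand) read 8.01 and 8.36 in mutant samples, against 7.94 and 7.75 in controls. The groups did not overlap, but on the replicate 1 array the gap was small. Its log2 ratio was 0.06 and 0.61, and the mean was 0.34 ± 0.39 (SD, n = 2; limma adjusted p = 0.547). Psmb9 (LMP2; chr17:34319174-34319233, minus strand) read 8.55 and 8.56 in mutant samples, against 8.48 and 8.26 in controls. The mutant samples differed by 0.02 and the controls by 0.22. The log2 ratio was 0.07 and 0.31 (limma adjusted p = 0.689). The other Psmb9 probe (chr17:34322762-34322821) was not well above background in any sample.

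Psmb10 (MECL-1, the subunit that takes the place of the trypsin-like Psmb7) was the member with a lower level in the mutant on both arrays. Its probe (chr8:108459677-108459736 on mm9, minus strand) read 12.4 and 11.2 in mutant samples, against 12.5 and 12.8 in controls. Mutant replicate 2 was the lowest of the 4 samples, and mutant replicate 1 was close to the controls. The log2 ratio was -0.16 and -1.62, or 0.896-fold and 0.326-fold, and the mean was -0.89 ± 1.03 (SD, n = 2; limma adjusted p = 0.394). On the replicate 2 array 0.732% of tested probes had a lower ratio, and on the replicate 1 array 21.8% did.

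Psmb10 was lowest in the same sample as the acinar genes. Its neighbour in the RefSeq annotation is Ctrl, which codes for a chymotrypsin-like enzyme of acinar cells and is read on the same strand, with 3123 bases between their probes on mm9. Ctrl read 15.5 and 11.0 in mutant samples, against 15.3 in each control, and its log2 ratio was 0.13 and -4.36. Lcat, the neighbour on the other side, was not well above background in any sample. Prss2, a trypsinogen, had ratios of 0.43 and -4.46, and the sign differed between arrays for 25 of the 30 tested genes of the acinar and Reg list. Ctrl and most acinar genes were above 0 on the replicate 1 array, where Psmb10 was at -0.16. The part of acinar RNA in the Psmb10 result was not tested.

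**Figure D3:**
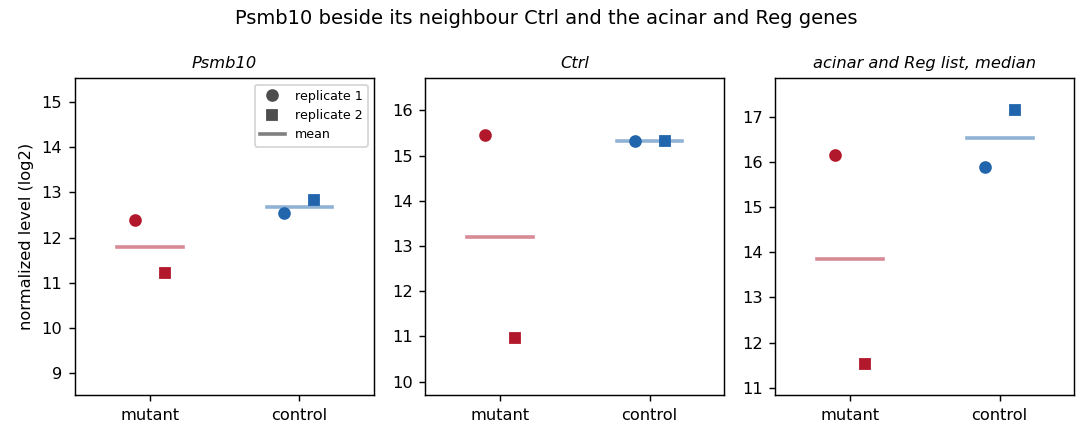
Normalized log2 level of Psmb10, of its neighbour Ctrl and of the median acinar and Reg gene (y axes of equal span, with their own range) in mutant samples (red, left) and control samples (blue, right), circles for replicate 1, squares for replicate 2 and lines for means. In all 3 panels mutant replicate 2 is the lowest sample, at 11.2 for Psmb10, 11.0 for Ctrl and 11.5 for the list's median.

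Neither gene of the peptide transporter passed the test. Tap2 (chr17:34353116-34353175, plus strand) read 9.86 and 10.1 in mutant samples, against 9.96 and 9.99 in controls, so the mutant samples lay on either side of the controls. Its log2 ratio was -0.10 and 0.15, and the mean was 0.03 ± 0.18 (SD, n = 2; limma adjusted p = 0.969). Tap1 (chr17:34330854-34330913, plus strand, 10 spots) read 6.63 and 6.76 in mutant samples, against 6.55 and 6.45 in controls, close to the background of the arrays. All 10 spots were well above background in each mutant sample and 2 of 10 in each control, so the control level is uncertain. The log2 ratio of Tap1 was 0.09 and 0.31, a mean of 1.15-fold, which did not pass the test (limma adjusted p = 0.666). The two-channel levels behind it are open to dye bias. With an offset of 0 the ratios of Tap1 were 0.23 and 0.70, and with processed signals 0.40 and 1.07. Neither passed the test (limma adjusted p = 0.505 and 0.473). Relative to the median of all tested probes with median centring, Tap1 stood at -0.22 and -0.21. On the replicate 1 array its spots ran between -0.12 and 0.29, and on the other between 0.07 and 0.44.

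Tapasin was higher in both mutant samples than in the controls. Tapbp (chr17:34065963-34066022, plus strand), which bridges TAP and the empty heavy chain, read 10.1 and 10.3 in mutant samples, against 9.86 and 9.83 in controls. Both mutant samples lay above both controls, and the controls differed by 0.03. The log2 ratio was 0.22 and 0.46, and the mean was 0.34 ± 0.17 (SD, n = 2, 1.27-fold). It did not pass the test (unadjusted p = 0.0537 and limma adjusted p = 0.451).

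Nlrc5 could be read in 1 sample. Its probe at chr8:97051105-97051164 was well above background in mutant replicate 2 alone, with processed signals of 33.5 and 111 in mutant samples, against 20.7 and 14.2 in controls. It was not tested, and no fold is given because 1 of the 2 mutant samples did not measure it. The other Nlrc5 probe (chr8:97030478-97030624, a span longer than the probe) was not well above background in any sample.

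The wider pathway was described from lists, with genes counted by their brightest probe, against 0.436% of tested genes that rose and 0.0116% that fell. Of 16 genes of peptide loading and processing in the endoplasmic reticulum and cytosol, 0 rose and 0 fell. Of these, 3 were higher on both arrays and 3 lower, and the median ratio was -0.0049 and 0.01. Hspa5, the chaperone BiP, stood at 0.19 and 0.46 and the tapasin-like Tapbpl at 0.02 and 0.04. The translocon subunits Sec61a1, Sec61b and Sec61g stood at -0.22 and -0.39, at -0.36 and -0.21 and at -0.34 and -0.02. Calr, Canx and Pdia3, the chaperones of the loading complex, stood at -0.09 and 0.29, at -0.01 and 0.37 and at 0.00 and 0.23.

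Among class Ib and class I-like genes, 19 of 24 were tested, 0 rose and 0 fell, 12 were higher on both arrays and 0 lower. Their median ratio, 0.06 and 0.34, was close to the members' 0.06 and 0.31. Fcgrt, the neonatal Fc receptor, which also pairs with B2m, read 7.69 and 8.28 in mutant samples, against 6.84 and 7.55 in controls (log2 ratios 0.85 and 0.74, limma adjusted p = 0.0988). H2-Q10 was at 0.28 and 0.48. Azgp1, a soluble class I-like protein, was at 0.25 and 0.72. Class I genes are near-identical copies of each other in places, so these probes may share transcripts.

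Among the constitutive proteasome subunits and proteasome activators, the ratios were mostly small. Of 11 genes 0 passed the test, 3 were higher on both arrays and 2 lower, and the median ratio was -0.06 and 0.15. Psmb5, Psmb6 and Psmb7, the subunits that Psmb8, Psmb9 and Psmb10 replace, were at -0.0030 and 0.05, at -0.08 and 0.15, and at -0.06 and 0.03. Psme3, the nuclear activator PA28 gamma, was at 0.40 and 0.66, and Psme4, the activator PA200, at -0.35 and -0.48. Pomp, the assembly factor of new proteasomes, was at 0.14 and 0.34, and the structural subunits Psma1 and Psma3 at 0.21 and 0.19 and at -0.10 and -0.02.

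Of 27 regulators 23 were tested, 0 rose and 0 fell, 12 were higher on both arrays and 4 lower, with a median ratio of 0.15 and 0.09. The receptor chains Ifngr1 (0.64 and 0.83, adjusted p = 0.127) and Ifnar1 (0.36 and 0.52) and the factor Irf8 (0.45 and 0.56) had the highest means of the list, followed by Ifnar2 (0.36 and 0.20). Creb1, a factor of the TGACG motif, was at -0.09 and -0.19, Irf3 at -0.13 and -0.14, Irf2 at -0.23 and -0.03 and Rela at -0.04 and -0.05. Irf1, which binds class I promoters after interferon, had opposite signs, -0.30 and 0.78. Rfx5 was not well above background in any sample.

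Genes of the interferon response had the highest median of the 5 pathway lists on each array under loess. With median centring the median over both arrays was 0.87, below the 0.89 of the class Ib list and the 0.96 of the constitutive proteasome list. Of 26 genes 25 were tested, 20 were higher on both arrays and 0 lower, and 1 rose. The median ratio was 0.31 and 0.50. Oasl2, an oligoadenylate synthetase-like protein, read 8.11 and 8.60 in mutant samples, against 6.84 and 7.33 in controls, and rose by 1.27 on each array (SD 0.0023, limma adjusted p = 0.0419). It did not pass at offset 0, with the series matrix, with processed signals, under a trended and robust prior or with separate channels, where 0 genes of the list did. Bst2, tetherin, was at 0.78 and 1.22 (adjusted p = 0.0885). Isg15, the ubiquitin-like modifier, was at 0.62 and 0.96 (adjusted p = 0.133).

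**Figure D4:**
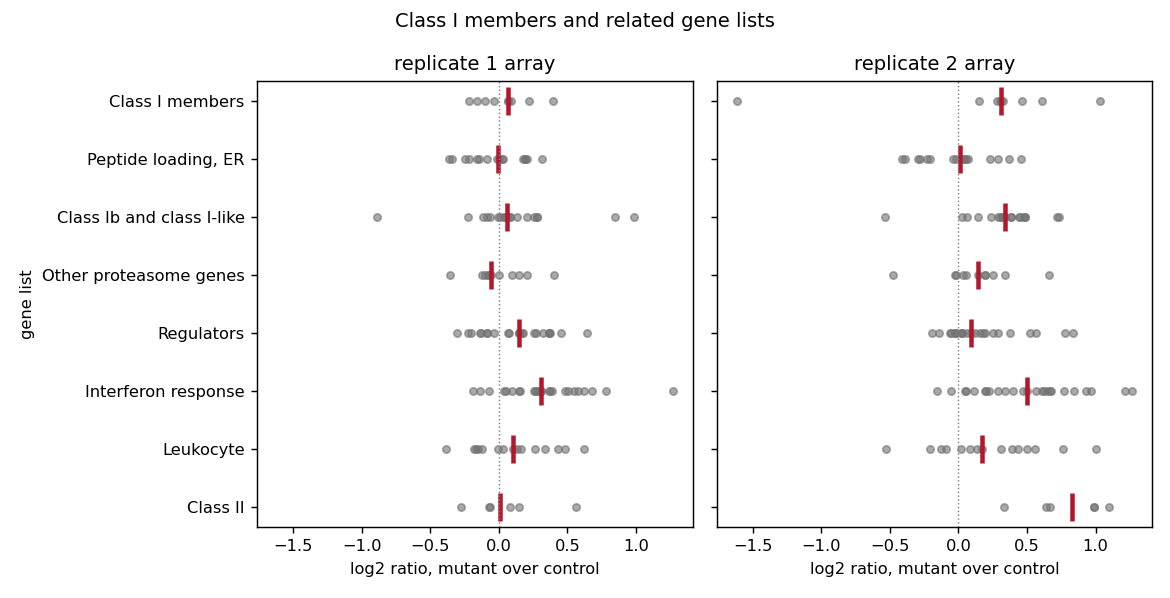
Log2 ratio of mutant over control (x axis) of each tested gene (points) of the class I members and of 7 lists (rows), with the list's median as a red bar, on the replicate 1 array (left) and the replicate 2 array (right). The interferon response list has its median at 0.31 and 0.50, the class I members at 0.06 and 0.31.

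Markers of other cells that carry class I genes were read beside these values. Of 21 leukocyte markers 15 were tested, 9 were higher on both arrays and 4 lower, and 0 passed the test. Ptprc, the common leukocyte antigen, was not well above background in any sample, nor were Cd53, Cd3g, Cd8a and Ms4a1. The median ratio of the tested markers was 0.10 and 0.17. Their median level was 7.47 and 7.81 in mutant samples, against 7.04 and 6.97 in controls, and the gap between these medians is larger than the median ratio. Cd14, a monocyte marker, was at 0.62 and 1.01 and Coro1a at 0.43 and 0.56, while Cd3e was at -0.39 and -0.53 and Csf1r at -0.15 and -0.21. The Cd3e probe was bright, at 9.73 and 9.29 in mutant samples and 10.12 and 9.82 in controls, although Cd3g was not above background. Csf1r was also bright, at 10.25 and 10.05 against 10.4 and 10.26. Whether the marker probes, bright or dim, read leukocyte RNA was not tested. The higher and the lower markers are therefore read as neither more nor fewer leukocytes. The 6 class II genes had a median ratio of 0.01 and 0.83. H2-Ab1 read 11.1 in each mutant sample, against 11.0 and 10.1 in controls, so control replicate 2 was the low sample. H2-DMb1 was at 0.56 and 1.10.

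Of 13 endothelial genes 11 were higher on both arrays, 1 was lower and 1 had opposite signs, and 2 (Vwf and Cd34) rose. Egfl7 was at 0.41 and 1.02, Cdh5 at 0.62 and 0.66 and Pecam1 at 0.46 and 0.64, while Kdr, a receptor of endothelial growth factor, was at -0.28 and -0.88. All 10 stromal genes were higher on both arrays and 7 (Col1a1, Col1a2, Col3a1, Dcn, Lum, Serpinf1 and Thy1) rose, with a median ratio of 2.16 and 1.73, where B2m had 0.39 and 1.03. Fbln1 was at 0.98 and 1.59 and Pdgfra at 0.90 and 1.06. Of 9 tested duct genes 6 were higher on both arrays, 0 lower and 2 (Tspan8 and Spp1) rose, at 1.41 and 1.59 and at 1.77 and 1.23. Krt19 was at 0.66 and 1.59 and Sox9 at 0.53 and 0.40, and the list's median ratio was 0.27 and 0.39. Over all tested genes 33.1% were higher on both arrays and 25.1% lower. The endothelial, stromal and duct calls did not hold at offset 0, with processed signals, with the series matrix, under a trended and robust prior or with separate channels. There, 0 tested probes passed. The part of any of these cell types in the ratios of B2m, Tapbp and the interferon genes was not tested.

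The direction of H2-D1, Tap1, Tap2, Psmb10 and the 10-spot H2-K1 probe, on 1 array or both, depended on how the arrays were scaled. Loess sets the median ratio of all tested probes near 0, at 0.02 on each array. Centring each array on its median over all gene probes, without loess, put the median of the tested probes at 0.39 and 0.84, and on that scale 8 of the 10 member probes passed the test, where 6664 probes of 22266 did upward. Relative to those medians B2m was 0.62 and 1.34 higher and Psmb10 stood at 0.16 and -1.31, while Tap1 was below them on both arrays. The 10-spot H2-K1 probe, H2-D1 and Tap2 stood above the median on both arrays on that scale, at 0.09 and 0.64, at 0.23 and 0.59 and at 0.08 and 0.44. Their opposite signs under loess do not hold there. Genes outside the members moved too: the constitutive proteasome list had a median over both arrays of 0.03 under loess and 0.96 with median centring. The shift is thus not particular to the members, and its link to probe brightness was not tested.

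**Figure D5:**
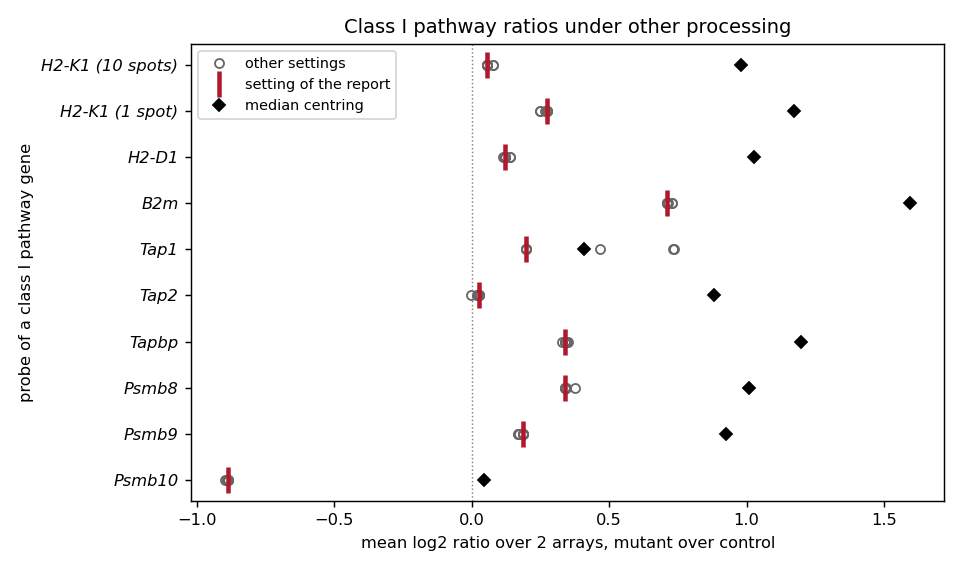
Mean log2 ratio of mutant over control over 2 arrays (x axis) of each tested class I pathway probe (rows) as reported (red bar), under other settings (open circles) and with median centring (black diamonds). Settings that change only the filter, the prior, the pairing or the acinar and Reg probes reuse the reported ratios, so their circles lie on the red bar by construction. B2m is at 0.71 with an offset of 0, at 0.73 with processed signals and with the series matrix, and at 1.60 with median centring. Tap1 reaches 0.73 with processed signals.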

How the data were processed

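RNA of mutant and control islets was hybridised in pairs to 2 two-colour Agilent arrays, each with the mutant in Cy5 and the control in Cy3, per the labels. The submitters' processing notes name Agilent Feature Extraction 10.7.3.1 for the scans. The file headers place probes on mm9. Intensity values as deposited are, per the file headers, each spot's mean signal, its median local background and a processed signal (background-corrected and dye-normalized). The deposited log10 ratios are red (mutant) over green (control), as the file headers give them. In the matrix that the authors deposited the ratios are identical: the largest difference was 0, and its column medians were 0 and 0.

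Background was corrected by normexp (limma 3.58.1, R 4.3.3) at an offset of 50, which understates the ratios of dim probes, then loess (span 0.3, control spots at weight 0). The 4 outlier spots on each array were left out, 0 spots were saturated, and spots of a probe were averaged. Probes well above background on at least 0.5 of their spots in either channel on both arrays were tested: 22266. In the mutant channel 41.0% and 48.2% of 59305 gene spots were well above background, in the control channel 37.0% and 38.1%. The ratio within an array is the pair. The 2 ratios were tested against 0 with lmFit and eBayes, two-sided, Benjamini-Hochberg adjusted at 0.05, with 1 residual degree of freedom and 4.90 from the prior. The number of arrays limits the precision. The p-values rest on the spread between these pairs, moderated by the prior fitted over all tested probes, and cover no further animals. Levels are loess and Aquantile values per channel. On simulated ratios of 22266 probes, 1.32% of probes with a true log2 change of 0.5 were called (1 probe). The share was 54.8% (34 probes) with a change of 1 and 100% (62 probes) with a change of 2, beside 13 false calls. The simulated spreads were drawn from the fitted prior with independent errors, so these shares hold under the model's own assumptions. The shared swing of the acinar genes was not simulated. A bound on a fold sets the mutant mean against the higher of the control probe's own level and the lowest level well above background. For Tap1 the control's own level was the higher, so the bound equals the mean ratio and is not given as a minimum.

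The members, lists and tests were chosen with earlier results of these data known. Every member probe is named. From each list the genes past the threshold are named, then those with the largest mean ratio of 1 sign on both arrays, up to 4 in each direction for the loading, class Ib, proteasome and regulator lists and up to 2 for the others. Ptprc, Pecam1, Ins1, Ins2, Col1a1 and Prss2 are named as defining markers. Calr, Canx, Pdia3, Psmb5, Psmb6, Psmb7, Irf1, Ctrl, Lcat and Rfx5 are named for their role or position, and were chosen after their values had been seen. Names are those of the files, or current symbols by accession from RefSeq's GRCm38.p6 table. Promoter windows come from the same assembly, with no conversion of mm9 positions. They were matched by symbol for H2-K1, H2-D1, B2m, Tap1, Tapbp, Psmb8, Psmb9 and Psmb10. Protein sequences were not used here. The alternatives were other background corrections, scalings, filters, priors and pairings, the fit without acinar and Reg probes, and each array alone.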

Additional observations from a re-analysis of the deposited data

How the results depend on the processing

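None of the 10 member probes passed the test under 8 of the 9 alternatives that give a test, and 8 did with median centring in place of loess, where the median ratio of all tested probes was itself 0.39 and 0.84. The mean log2 ratios were then 0.98 and 1.17 for the H2-K1 probes, 1.03 for H2-D1, 1.60 for B2m, 0.88 for Tap2, 1.20 for Tapbp, 1.01 for Psmb8 and 0.92 for Psmb9. The sign of Psmb10 turned to 0.046 (limma adjusted p = 0.911), and the members' median was 0.98, against 0.19 as reported. The cause was not tested. The mean of Tap2 was -0.0035 with an offset of 0. The number of tested probes past the threshold was 85 as reported (2528 at an unadjusted p under 0.05) and 6735 with median centring, 355 with no filter on dim probes and 174 without acinar and Reg probes. It was 0 with an offset of 0, with processed signals, with the series matrix, with a trended and robust prior and with separate channels and no replicate block (2471, 2351, 2355, 2143 and 1497 at an unadjusted p under 0.05). Separate channels drop the pairing within an array, and since 0 member probes passed with it or without it, this says nothing about the block. Each array alone gave the members' median as 0.06 to 0.31, and the ratio of the 10-spot H2-K1 probe as -0.22 to 0.33, of H2-D1 as -0.039 to 0.28 and of Tap2 as -0.10 to 0.15, the negative values being those without replicate 2. The median of the peptide loading list, -0.04, was 0.01 without replicate 1. Tap1 was well above background in the mutant channel alone, so the both-channel filter leaves it out. Signal over background limits Tap1 and Nlrc5.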
